A study of Schizosaccharomyces pombe with 6 samples.

Results

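Of the 11033 small RNA peaks in the deposited fission yeast (Schizosaccharomyces pombe) peak file, 3389, or 30.7%, lay on exactly 1 annotated protein-coding gene and also on an annotated long non-coding RNA (lncRNA) of the opposite strand. They were chosen by position alone, with an overlap of at least 1 bp, and no measured level entered the choice. They fell in 1550 coding genes and under 1674 lncRNAs. The 4345 peaks that lay on exactly 1 coding gene and on no lncRNA, in 1964 genes, served as the comparison. The other peaks lay on 2 or more coding genes (1774), on no coding gene (1488), or on 1 coding gene with a lncRNA of the same strand only (37).

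The study sequenced small RNA of 18 to 28 nt, cut from a gel, in 6 libraries from cells grown in YES medium to an optical density of 0.5. Strain spb80 (labelled wild type) and strain spb309 (labelled dcr delta) gave 1 library each at 30 °C. Strain spb75 (labelled wild type) gave 2 libraries at 30 °C, 1 after 8 hours at 37 °C and 1 after 7 days at 37 °C. Further alleles, mating types and the number of clones behind a strain are not given in the labels. Neither is whether the spb75 libraries came from separate cultures. Every p-value below therefore rests on the spread between these libraries, which may be technical. That spread is in large part pooled over all peaks and is not that of the single peak. Because each strain or heat treatment outside the 30 °C wild type is a single library, its own spread is taken from the control libraries. A level in bulk RNA also cannot tell fewer cells with a small RNA from less of it per cell.

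Dicer is the ribonuclease that cuts double-stranded RNA into small interfering RNAs, and an Argonaute protein carries these to matching transcripts. In fission yeast this pathway is best known for silencing the centromere repeats, where transcription from both strands supplies the double-stranded RNA. Many coding genes of this yeast also lie under an antisense lncRNA, so that both strands of the same stretch are transcribed. Hsp104, named with Dicer in the title of the study, is a chaperone that takes apart protein aggregates formed during heat. The file gives no usable strand for the reads, so small RNA of the mRNA strand and of the antisense strand could not be told apart at any peak below.

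The stretches of sequence under the peaks are short, and those that carry the results are shown here from the RefSeq genome (assembly ASM294v3), 5′ to 3′ on the strand of the mRNA. Capitals mark bases that also lie under the antisense lncRNA. The first 3 carry the results for the library labelled dcr delta: a stretch of eno102, an enolase gene, at chrII:58992-59029 (- strand), a stretch of tho3, a gene of the THO complex that packages mRNA, at chrIII:738054-738081 (- strand), and the point at chrI:4282-4341 (- strand) where the lncRNA SPNCRNA.2003 ends inside the long peak of tlh1, a helicase gene at the end of chromosome I.
eno102: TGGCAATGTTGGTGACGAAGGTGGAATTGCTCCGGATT
tho3: AAACATATTTTAGCATATGCTGTATCGG
tlh1: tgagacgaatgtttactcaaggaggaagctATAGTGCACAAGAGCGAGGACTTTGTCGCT

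The next 5 carry the results at 37 °C for 8 hours. They come from vht1, a vitamin H transporter gene (chrI:4959647-4959676, - strand), nhe1, a sodium/proton antiporter gene (chrI:52325-52366, + strand), isp6, a vacuolar protease gene (chrI:2546068-2546116, + strand), ccr1, the NADPH-cytochrome P450 reductase gene (chrII:2535309-2535342, + strand), and cox24, a mitochondrial ribosomal protein gene (chrI:4763435-4763468, + strand).
vht1: CAGTTTTTCCGGTATCGATATCTCGTTGTT
nhe1: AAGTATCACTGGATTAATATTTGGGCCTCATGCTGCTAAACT
isp6: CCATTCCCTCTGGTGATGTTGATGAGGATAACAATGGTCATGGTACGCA
ccr1: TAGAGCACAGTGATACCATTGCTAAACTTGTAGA
cox24: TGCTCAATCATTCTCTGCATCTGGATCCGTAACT

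The last 5 belong to the largest differences at 7 days and to members in which some libraries stood apart or the lncRNA ends inside the peak. They come from mug14, an adducin-like gene (chrII:128860-128895, + strand), wis2, a cyclophilin gene (chrI:4930187-4930239, - strand), cbm1, which encodes a cellulose-binding domain protein (chrI:2936055-2936086, - strand), ade6 of adenine synthesis (chrIII:1317308-1317340, + strand), and aco1, an aconitase gene (chrI:3050572-3050639, - strand), where 50 of the 68 bases lie under SPNCRNA.3369. Each of these sequences occurred once in the genome, except the tlh1 stretch, which occurred 2 times because tlh2 at the end of chromosome II carries a copy.
mug14: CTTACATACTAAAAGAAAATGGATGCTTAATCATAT
wis2: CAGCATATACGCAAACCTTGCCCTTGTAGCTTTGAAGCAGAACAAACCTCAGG
cbm1: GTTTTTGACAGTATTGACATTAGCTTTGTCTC
ade6: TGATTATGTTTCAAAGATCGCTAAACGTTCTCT
aco1: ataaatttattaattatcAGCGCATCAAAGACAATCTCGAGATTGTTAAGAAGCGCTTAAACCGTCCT

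The members were narrow. Their median width was 49 bp (range 23 to 1074), against 51 bp for the coding peaks without a lncRNA. The lncRNA covered the whole peak in 2973 of the 3389 (87.7%) and less than 50% of it in 170. Coding sequence held 2580 members (76.1%), the 3′ UTR 616, the 5′ UTR 174 and an intron 19. In the comparison peaks coding sequence held 65.2% and the 3′ UTR 30.1%, so that members lay further upstream, at a median of 57.8% of the gene's length against 71.2%. Chromosome I carried 1596 members, chromosome II 1219 and chromosome III 574. The members had a median GC content of 40.2% against 38.5%, and a median level of 43.9 against 46.0 on the normalised scale explained with the first gene below.

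An antisense lncRNA was common over coding genes. Of 5113 annotated coding genes, 3857 have an antisense lncRNA, and 61.0% of those held any peak of their own, against 45.8% of the 1256 genes without one. Counted by bases, 4.34% of the coding-gene sequence under an antisense lncRNA lay in a peak, against 6.95% of the sequence without one. Neither figure was tested, and gene length and mRNA level were not held fixed in them. A member gene had most often a single member peak (755 genes), and 154 genes had 5 or more.

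Reads over all peaks numbered from 5.79e+06 to 1.57e+07 per library. The members with fewer than 10 reads numbered from 296 in spb75 replicate 1 to 907 in the 7-day library, so small changes of these were not detectable at this depth. In the library labelled dcr delta, the pericentromeric peaks without tRNA genes held 0.116% of all reads, against 19.0% ± 3.35 (SD, n = 3) in the wild type libraries at 30 °C. The dcr1 gene itself, which encodes Dicer, has 1 peak in its coding sequence, and that peak held 115 reads in the library labelled dcr delta against 60, 46 and 42 in the wild type libraries. Since the extent of the deletion is not given, that peak may lie outside it and is then no check of the label. The strain is therefore called by its label throughout.

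In 2 genes, some libraries stood far apart from the others. Over cbm1 all 8 peaks, 5 members and 3 others, held 0 reads in spb75 replicate 2, and the 7-day library held 0 to 6 reads in each. The normalised reads summed over the 5 cbm1 members were 265 in spb80, 168 in spb75 replicate 1, 0 in spb75 replicate 2, 187 in the library labelled dcr delta, 113 at 8 hours and 8.85 at 7 days. Over the ade6 member, the level was 30.3 in spb80 and 38.4 in the library labelled dcr delta, against 2722 and 819 in the spb75 libraries at 30 °C, 3589 at 8 hours and 1890 at 7 days. All 4 spb75 libraries were thus above both other strains at this ade6 peak. Whether the spb75 libraries share 1 genotype beyond the strain label was not tested, which also limits the heat comparisons. No cbm1 or ade6 member passed the threshold in a comparison below with all control libraries in the fit.

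**Figure D1:**
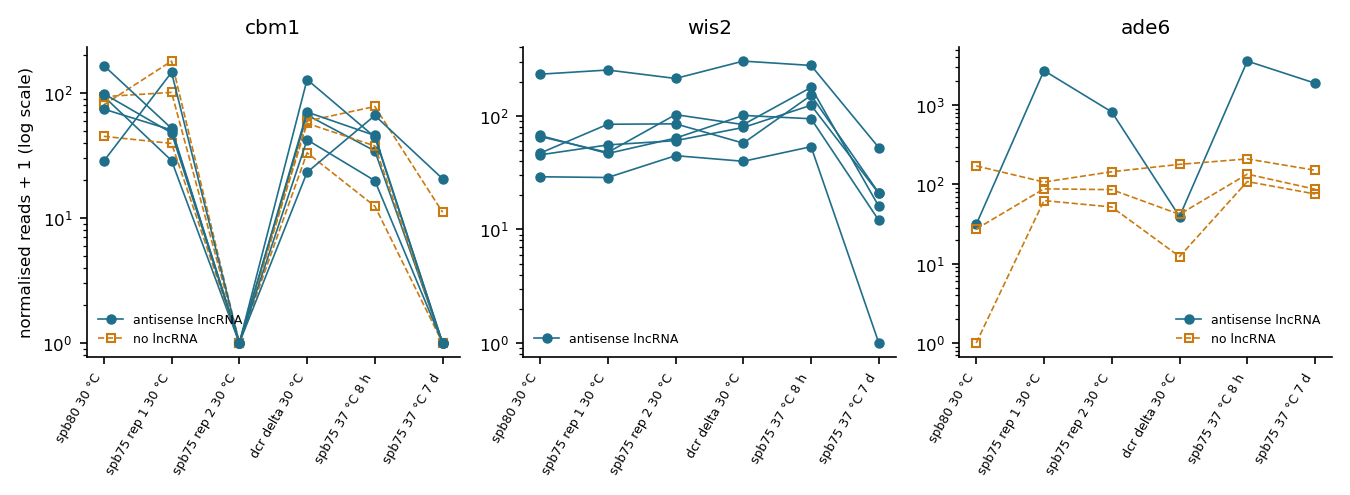
Normalised signal + 1 (log scale) of the cbm1, wis2 and ade6 peaks in each of the 6 libraries, 1 line per peak, with filled points for peaks under an antisense lncRNA and open squares for peaks without a lncRNA. The cbm1 peaks drop to 0 in spb75 replicate 2, the ade6 member is above 800 in the spb75 libraries and under 40 in spb80 and spb309, and the wis2 peaks are low in the 7-day library.

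The members took a steady part of the coding small RNA. Of all reads over peaks they held 4.67% in spb80, 4.42% and 7.36% in the spb75 libraries at 30 °C, 4.65% in the library labelled dcr delta, 2.28% at 8 hours and 3.56% at 7 days. The share in the library labelled dcr delta lay inside the wild type range, and both heat shares lay below both spb75 controls. In the library labelled dcr delta rRNA peaks held 58.0% of reads, against 27.9% ± 4.40 (SD, n = 3) in wild type at 30 °C. Without rRNA and tRNA peaks the members held 27.0% there, above the 11.8 to 18.4% of the wild type libraries. That base keeps the pericentromeric peaks, which were low in that library, and their part was not tested. Shares within a library trade against each other, and in the heat libraries the tRNA share moved the other way. It was 34.9% ± 3.76 (SD, n = 3) in wild type at 30 °C, 67.7% at 8 hours and 58.6% at 7 days, and the part of tRNA and rRNA reads in the members' lower shares was not tested. Set against reads over protein-coding peaks alone, the members held 34.6% ± 0.343 (SD, n = 3) in wild type at 30 °C, 33.6% in the library labelled dcr delta (95% Wilson interval 33.5 to 33.7, counting error only), 34.5% at 8 hours and 34.3% at 7 days. On that base both heat libraries were within 1 percentage point of the controls. The library labelled dcr delta and the 7-day library lay below all 3 wild type libraries (34.4, 35.0 and 34.6%). The 8-hour library lay below both spb75 controls and above spb80. With 1 library against 3, an exact permutation test cannot reach 0.05, so no test was made of these shares.

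**Figure D2:**
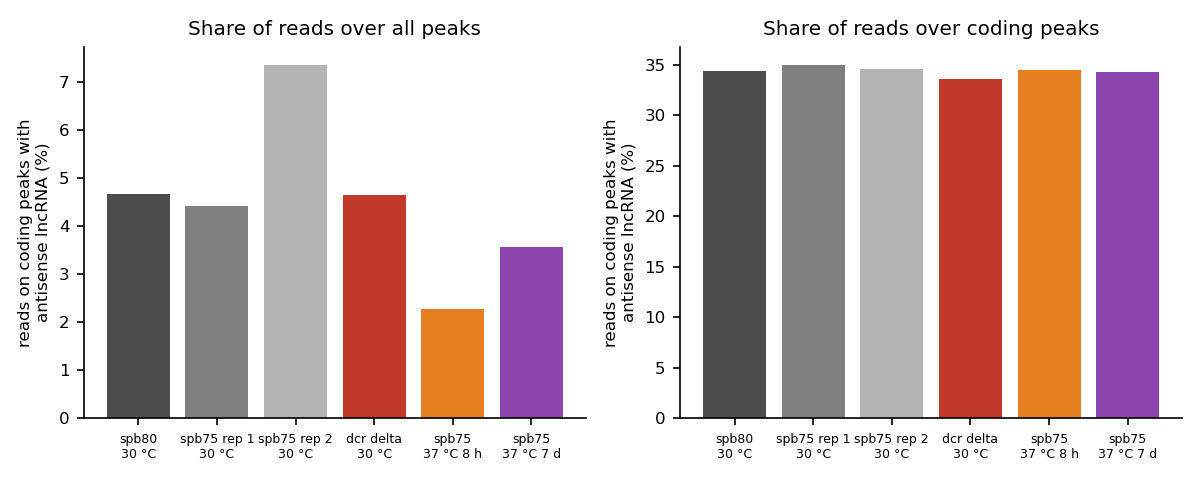
Percent of reads that lie on coding peaks with an antisense lncRNA, in each of the 6 libraries, with all peak reads and with coding peak reads as the base. The share of all reads runs from 2.28 to 7.36%, and the share of coding reads from 33.6 to 35.0%.

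The first question was whether the members need Dicer. The library labelled dcr delta was set against the 3 wild type libraries at 30 °C with limma on log2(normalised signal + 1), where 2657 members passed the filter on low values among 8274 peaks tested. A single member rose and 4 fell at an adjusted p of 0.05. Over all peaks tested, 0.0242% rose and 0.87% fell. Of the 72 peaks that fell in all, 1 was a coding peak without a lncRNA. Of the members, 161 (6.06%) had an unadjusted p under 0.05. The share was 6.22% over all peaks tested and 4.26% in coding peaks of like level without a lncRNA. Without spb80 the fall was called at 11 members in place of 4, and without spb75 replicate 2 the rise at 5 in place of 1. The calls added without spb80 included ade6, and those added without spb75 replicate 2 lay in gpd3, gst2 and obr1.

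The call that rose was the eno102 stretch printed above. Its normalised signal, in reads per peak of mean width after scaling the libraries to each other, was 55.7 in spb80, 53.3 and 64.5 in the spb75 libraries, and 950 in the library labelled dcr delta. The 3 controls lay within a narrow band (57.8 ± 5.91, SD, n = 3) and the strain labelled dcr delta far above it, by 4.02 on the log2 scale (SE 0.445, limma adjusted p = 0.00121), or 16.4-fold. The same stretch was at 1679 after 8 hours and 242 after 7 days at 37 °C. The other 4 eno102 members, which were under the filter on low values in this comparison, had levels from 4.48 to 15.8 in the library labelled dcr delta and from 1.11 to 22.8 in the controls, each peak inside the range of its own controls. The rise of the printed stretch passed in each of 11 alternative settings that gave a test.

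The members that fell were in tlh1, tlh2 and tho3. Both tlh genes are near-identical helicase genes at chromosome ends and share their reads, so their 3 members are not independent. The tlh1 member (934 bp, of which 27.3% lies under the lncRNA) had a level of 167 in spb80, 323 and 142 in the spb75 libraries and 0.532 in the library labelled dcr delta, a fall by 7.01 on the log2 scale (SE 0.574, limma adjusted p = 0.000176). The peak of tlh1 that has no lncRNA had a log2 ratio of -7.24. The tlh2 members had log2 ratios of -7.06 and -7.07 (limma adjusted p = 0.00036 and 0.000161). The fall was thus no smaller at the tlh1 peak off the lncRNA than at the one on it.

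The tho3 stretch had 8 reads in spb80, 27 and 15 in the spb75 libraries and 0 in the library labelled dcr delta. The adjoining tho3 member had levels of 13.6, 42.0 and 28.7 in the controls and 16.2 in the library labelled dcr delta, a log2 ratio of -0.62. The remaining tho3 member went the other way, with a log2 ratio of 0.42. Normalised reads summed over the tho3 members were 37.3 in spb80, 58.9 and 50.3 in the spb75 libraries and 36.8 in the library labelled dcr delta. With 0 taken as at most 3 reads, the tho3 stretch was at least 3.87-fold lower (limma adjusted p = 0.0412). That call was lost with a pseudocount of 10 (adjusted p = 0.204), with voom weights (0.112) and with the added constant of the file kept (0.496). Without the pericentromeric and subtelomeric peaks, or without peaks whose reads are shared between copies, 1 member fell in place of 4.

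Among members that missed the threshold, several genes had every one of their members on the same side. The 7 members of obr1, an NAD(P)H quinone dehydrogenase gene, had log2 ratios from 1.20 to 3.06, and the 6 of gst2, a glutathione S-transferase gene, from 1.28 to 2.72. For obr1 the normalised reads summed over the gene were 635 in spb80, 636 and 1546 in the spb75 libraries and 2677 in the library labelled dcr delta. In the opposite direction, 9 of the 10 members of rpt6, a proteasome ATPase gene, had log2 ratios below 0, down to -3.58, and SPAC3H8.04, a chromosome segregation gene, had levels of 31.3, 56.9 and 68.6 in the controls against 5.05 at 1 of its 2 members (limma adjusted p = 0.0907). The other SPAC3H8.04 member was at 7.99 in the library labelled dcr delta, inside the range of its controls. When reads were summed per coding gene, an alternative setting, cta3 (a calcium ATPase gene) and ecl1 (a small lifespan gene) also rose, with log2 ratios of 3.89 (limma adjusted p = 0.0241) and 2.81 (0.0414). The summed reads of ecl1 were 19.0 in spb80, 32.8 and 24.7 in the spb75 libraries and 181 in the library labelled dcr delta, and 7.35 at 8 hours.

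Seen over all 2657 members, the library labelled dcr delta differed little from wild type. The median log2 ratio was -0.11, against -0.06 for coding peaks of like level and -0.05 for all peaks tested. The difference between members and like-level peaks was -0.05, where the 3 wild type libraries, each set against the mean of the others, gave -0.02 to 0.02. With spb80 as the only control the difference was -0.10. Members lay below every wild type library in 905 cases (34.1%; 30.2% of all peaks, 29.6% of like-level peaks) and above all of them in 494 (18.6%; 22.4% of all peaks, 22.8% of like-level peaks). The members' median was the lower in 7 of 10 bins of equal level, with differences between -0.11 and 0.06. The ratio fell with level in both classes, from 0.29 and 0.28 in the lowest bin to -0.25 and -0.26 in the highest. Because the filter on low values included the treated library, the low bins could keep peaks that passed through a high level there. The part of the filter in this fall was not tested, and the fall is not read as an effect of level. Members and peaks without a lncRNA within the same gene, in 470 genes with both, differed by a median of -0.01.

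**Figure D3:**
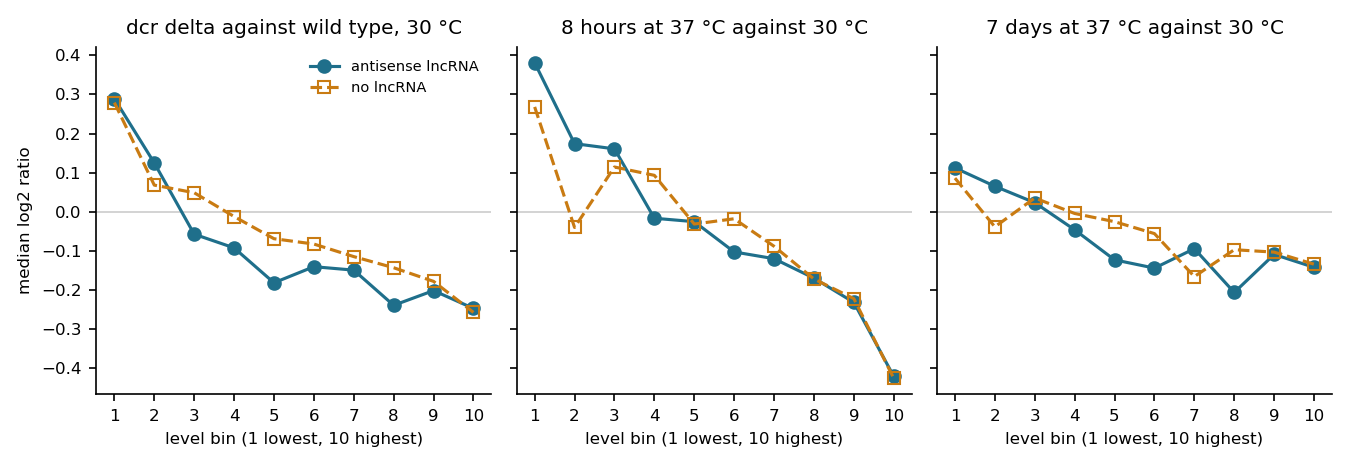
Median log2 ratio of coding peaks with an antisense lncRNA and of coding peaks without a lncRNA, in 10 bins of mean level, for the library labelled dcr delta, 8 hours and 7 days at 37 °C. The classes differ by 0.21 or less in every bin of the 3 comparisons, and both are lower in the highest bin than in the lowest. The filter on low values included the treated library, so a peak low in the controls could enter the low bins through a high level there.

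The second question was whether the members follow heat. After 8 hours at 37 °C, 12 of 2673 members rose and 5 fell against the 2 spb75 libraries at 30 °C (limma, adjusted p of 0.05). Over all peaks tested 0.568% rose and 0.0967% fell, and of 3340 coding peaks without a lncRNA 23 rose and 1 fell. Members with an unadjusted p under 0.05 made up 15.4%, against 15.4% of all peaks tested and 15.3% of like-level coding peaks. The heat comparisons use the spb75 controls that also enter the comparison of the library labelled dcr delta, so the values of a gene in both are set side by side and not related to each other. The calls depend on how libraries are scaled: with total reads over peaks as the base, the median of all peaks moved to -1.11 and the counts became 0 that rose and 1 that fell. With reads summed per coding gene, no gene passed.

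The strongest rise was again the eno102 stretch, at 1679 against 53.3 and 64.5, a log2 ratio of 4.82 (SE 0.547, limma adjusted p = 0.00119). It was called in 7 of 8 alternatives with a test, and missed with total reads as the base (0.152). The nhe1 stretch stood at 35.9 and 40.0 in the controls, 319 at 8 hours and 79.7 at 7 days (8 hours: 3.04, limma adjusted p = 0.0202). Further stretches that rose lay in the F-box gene pof11 (5′ UTR), the meiotic recombination gene rmr1, the guanine nucleotide exchange gene sec74, the protease gene isp6, the iron transporter gene str1 (3′ UTR), the splicing gene cwf28, the mediator gene med13, the kinetochore gene fta3 (intron) and SPAC27D7.11C, a But2-family gene. Their log2 ratios ran from 2.61 to 3.73. Another member of cwf28 had an 8-hour ratio of -2.08 and another of fta3 one of -0.53, while all 4 members of rmr1 and all 3 of isp6 were above 0. At 7 days sec74 and cwf28 were within the range of their controls (23.3 and 11.8), and the other 7 lay between their controls and the 8-hour level. For isp6 the values were 7.04 and 9.29 in the controls, 120 at 8 hours and 21.4 at 7 days. The filter on low values averaged the controls with the treated library, so a peak low in the controls could enter through its 8-hour level. The isp6 and cwf28 stretches were under that filter at 7 days. Their entry to the 8-hour test was therefore not independent of their rise. The spb80 library, which is no part of the heat fit, lay above both spb75 controls at 9 of the 12 stretches that rose, among them rmr1 (270), str1 (76.4) and nhe1 (89.5). The 8-hour level was above spb80 as well at all 12.

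SPAC27D7.11C rose in 1 of its 7 members, which had levels of 17.9 and 30.0 in the controls, 168 at 8 hours and 98.7 at 7 days (8 hours: limma adjusted p = 0.0449). Its reads summed over all 7 were 226 and 287 in the controls, 1182 at 8 hours and 808 at 7 days. Both heat libraries were above both controls in this gene.

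The members that fell at 8 hours were 3 of vht1, and 1 each of cox24 and ccr1. The printed vht1 stretch had levels of 118 and 278 in the spb75 controls, 2.90 (1 read) at 8 hours and 119 at 7 days, a log2 ratio of -5.55 (SE 0.605, limma adjusted p = 0.00119) and 61.7-fold lower in pooled reads, with a 95% counting interval of 8.43 to 256. The other vht1 members called had levels of 127 and 161 in the controls against 22.1 (limma adjusted p = 0.0449) and of 132 and 203 against 20.6 (0.0313). All 7 vht1 members and all 3 vht1 peaks without a lncRNA had negative log2 ratios at 8 hours, from -5.55 to -1.21 for members and from -2.33 to -2.14 for the others. The vht1 sum over members was 474 and 788 in the controls, 112 at 8 hours, 372 at 7 days, and 245 in the library labelled dcr delta, which was below every control too. The ccr1 stretch had 72.3 and 92.7 in the controls, 12.8 at 8 hours and 58.5 at 7 days, and cox24 104 and 68.0 in the controls, 12.8 at 8 hours and 24.6 at 7 days (limma adjusted p = 0.049 for both). The other cox24 members had 8-hour log2 ratios of -0.04 and 1.37, and the summed cox24 reads were 106 and 85.9 in the controls and 129 at 8 hours. All 4 ccr1 members had ratios below 0 at 8 hours, from -2.59 to -0.54.

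**Figure D4:**
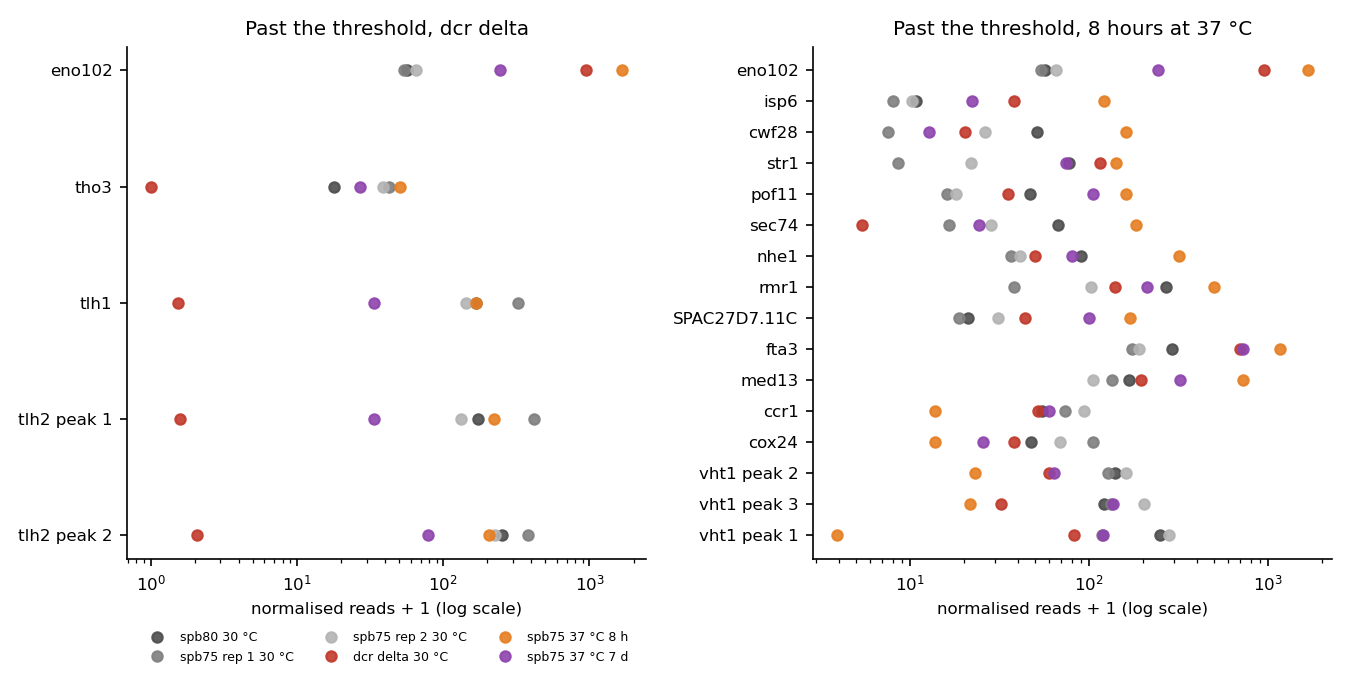
Normalised signal + 1 (log scale) of the member peaks named in the text that passed a limma adjusted p of 0.05, 1 row per peak and 1 point per library, with the calls of the library labelled dcr delta on the left and of 8 hours at 37 °C on the right (peaks of a gene are numbered along the chromosome). The eno102 points of the library labelled dcr delta and of 8 hours at 37 °C stand above 900, while the tlh and tho3 points of the library labelled dcr delta lie near 0.

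As a group the members followed the other coding peaks at 8 hours. The median log2 ratio was -0.08, against -0.07 for like-level peaks and -0.01 over all peaks tested. Members lay above both controls in 917 cases (34.3%; 38.1% of all peaks, 35.3% of like-level peaks) and below both in 1119 (41.9%; 37.9% of all peaks, 40.4% of like-level peaks). In the lowest bin of level the medians were 0.38 and 0.27, and in the highest -0.42 and -0.43, with the same limit from the filter on low values. Within the same gene, members and peaks without a lncRNA differed by a median of -0.04 over 474 genes, and in 100 of those genes by more than 2-fold.

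The position within the gene went with the 8-hour ratio more than the lncRNA did. Members in coding sequence had a median of -0.17 (comparison peaks -0.24), those in the 3′ UTR 0.25 (0.17) and those in the 5′ UTR 0.12 (0.16). In the library labelled dcr delta the medians for coding sequence were -0.14 and -0.12, for the 3′ UTR -0.04 and 0.06. The difference of 3′ UTR from coding sequence was in both classes and was not tested. Level and kind of gene were not held fixed in these medians.

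After 7 days at 37 °C no member was called. Of 2655 tested, 0 rose and 0 fell, where 0% rose and 0% fell over all peaks. An unadjusted p under 0.05 was found for 285 members (10.7%), against 9.40% of all peaks tested and 8.03% of like-level peaks. A fit of the 7-day library together with the 8-hour library, over all 4 spb75 libraries, called 1 rise. The median log2 ratio was -0.07, against -0.05 for like-level peaks and -0.01 over all peaks tested. Members lay above both controls in 807 cases (30.4%; 33.9% of all peaks) and below both in 1057 (39.8%; 36.1%). Compared directly in a fit of all 6 libraries, 7 days against 8 hours gave 0 calls of 2666 members (0% of all peaks rose and 0% fell). An unadjusted p under 0.05 was found for 223 members (8.36%), against 9.02% of all peaks tested and 9.78% of like-level peaks.

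The largest differences at 7 days missed the threshold. The mug14 stretch had levels of 18.0 and 15.6 in the spb75 controls, 74.9 at 8 hours and 177 at 7 days, a log2 ratio of 3.33 at 7 days (limma adjusted p = 0.0685), and 2.20 in the library labelled dcr delta. All 4 mug14 members had ratios above 0 in both heat libraries, from 2.20 to 3.33 at 7 days and from 1.72 to 2.22 at 8 hours. No mug14 member passed the filter on low values in the comparison of the library labelled dcr delta. In the heat comparisons the heat library itself was part of the filtered mean. The wis2 members all had ratios below 0 at 7 days, from -5.16 to -1.48, and their normalised reads summed to 576 and 675 in the controls, 1061 at 8 hours and 136 at 7 days. The low wis2 sum at 7 days is that of 1 library with no replicate.

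Heat shock and chaperone genes with members were followed as a list. Their 12 genes held 37 members, of which 37 were tested at 8 hours: 30 had a ratio above 0, 20 had an unadjusted p under 0.05, and none rose after adjustment. Over all peaks tested, 49.4% were above 0 and 15.4% had such a p. Of 70 chaperone peaks without a lncRNA, 45 were above 0 and 15 had such a p. The members' median was 1.29, against 0.32 for chaperone peaks without a lncRNA and -0.01 over all peaks tested. At 7 days 7 of 35 members were above 0 (49.5% of all peaks tested) with a median of -0.63. In the library labelled dcr delta 30 of 35 were (46.8% of all peaks tested), with a median of 0.77. ssa1, an Hsp70 chaperone gene, had all 10 members above 0 at 8 hours (0.81 to 2.85) and in the library labelled dcr delta (0.77 to 2.52), and its summed reads were 202 and 725 in the spb75 controls, 304 in spb80, 1568 at 8 hours, 237 at 7 days and 1039 in the library labelled dcr delta. The 4 members of hsp104 had ratios from 1.02 to 2.99 at 8 hours, where their sum was 957 against 126 and 341 in the controls, and 85.5 at 7 days. The 3 members of ssa2, another Hsp70 gene, were near 0 at 8 hours and between -2.42 and -1.78 at 7 days. Chaperone peaks without a lncRNA had medians of 0.33 in the library labelled dcr delta and -0.87 at 7 days (12 of 64 above 0), and 2 of them rose at 8 hours. Each count rests on 1 library and on few genes with many peaks.

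The stress list (15 genes, 50 members) showed 35 of 44 members above 0 in the library labelled dcr delta, with a median of 0.79 against 0.08 for stress peaks without a lncRNA, and 12 had an unadjusted p under 0.05. Of these, 9 were in obr1 and gst2. Of 56 stress peaks without a lncRNA, 29 were above 0 in that library and 7 had such a p. Over all peaks tested, 46.8% were above 0 there and 6.22% had such a p. At 8 hours 28 of 40 stress members were above 0 (median 0.51) and 1, isp6, rose, while 50 of 62 stress peaks without a lncRNA were above 0 (median 0.66) and 3 rose. Over all peaks tested, 49.4% were above 0 at 8 hours. The ribosomal protein list (68 genes, 215 members) lay the other way at 8 hours: 26 of 211 members were above 0, with a median of -0.43 against -0.46 for those without a lncRNA, and the median returned to 0.01 at 7 days. Of 35 translation factor members, 5 were above 0 at 8 hours (median -0.62), as were 20 of 106 such peaks without a lncRNA (median -0.44). Meiotic genes had 19 of 25 members above 0 at 8 hours (median 0.72), and 12 of 17 peaks without a lncRNA (median 0.34). The RNA interference and heterochromatin list had 0 of 5 members above 0 in the library labelled dcr delta (median -0.55). There, 9 of 12 peaks of that list without a lncRNA were above 0 (median 0.36), as were 46.8% of all peaks tested. Among membrane transporters 3 vht1 members fell and str1 rose at 8 hours. No list is tested here, and members of a gene are not independent.

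**Figure D5:**
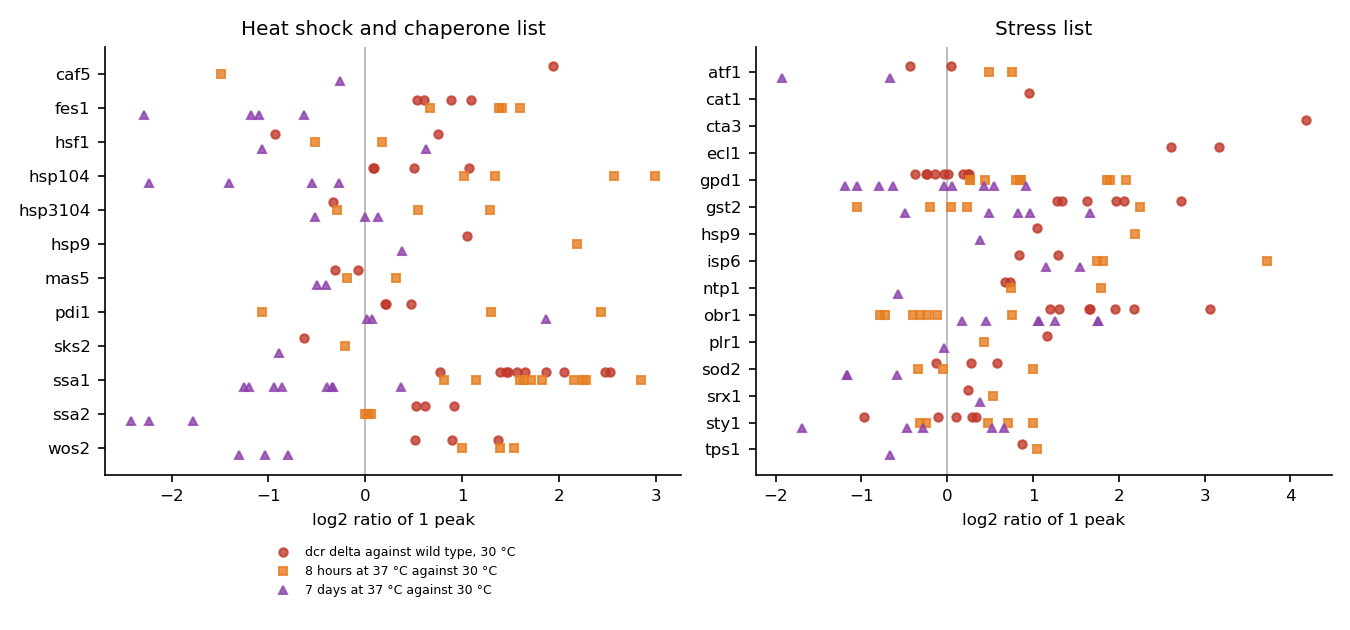
Log2 ratios of the members of the heat shock and chaperone list and the stress list, 1 row per gene and 1 point per peak, in the library labelled dcr delta, after 8 hours and after 7 days at 37 °C. The chaperone points sit mostly above 0 in the first 2 comparisons (30 of 35 and 30 of 37) and mostly below 0 at 7 days (7 of 35 above).

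No member of the genes with most members, or of the 10 members with the highest level, passed the threshold in any of the 3 comparisons. adh1, the alcohol dehydrogenase gene under the lncRNA adh1AS, held 6 members whose summed normalised reads were 17550 in spb80, 17983 and 20020 in the spb75 libraries, 16642 in the library labelled dcr delta, 18120 at 8 hours and 19637 at 7 days. Its most abundant member varied from 2016 to 4397. The 12 members of gly1, a threonine aldolase gene, had ratios from -1.71 to -0.02 at 8 hours, with sums of 1649 and 1529 in the controls against 743, and the 11 of ssz1, an Hsp70-like gene, from -1.25 to -0.37, with sums of 1657 and 1951 against 975. All 10 members of SPAPB24D3.07C had ratios above 0 in the library labelled dcr delta, from 0.70 to 1.96, with a sum of 1314 there against 286 in spb80 and 548 and 1265 in the spb75 libraries. The member with the highest mean level lay in ppk26, at 8193 in spb80, 3895 and 7759 in the spb75 libraries, 4907 in the library labelled dcr delta, 995 at 8 hours and 2901 at 7 days. The 8-hour ratio of ppk26 was -2.47 (limma adjusted p = 0.168). At aco1, where the lncRNA ends inside the peak, the level was 1242, 4564 and 2420 in wild type, 1088 in the library labelled dcr delta, 1834 at 8 hours and 876 at 7 days. The ppk26 levels at both heat times and both aco1 levels outside wild type and 8 hours lay below all 3 wild type libraries.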

How the data were processed

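Small RNA of 18 to 28 nt was sequenced in 6 libraries. The tools named, per the submitters' processing notes, are Bowtie 0.9.9.1, MACS and CASAVA 1.8. No genome build is given in the sources used here. A deposited peak file lists 1 signal value per peak and library, inferred from the values to be reads times mean peak width over peak width. The spb80 and dcr delta columns carry a constant of 8, which was subtracted, and 1 read is worth 1.48 in the latter. From 73.7 to 92.4% of values came out as whole reads (within 0.01), so no count test was run. Coordinates were checked against ASM294v3: of 243 genes for tRNA, snRNA or snoRNA, 212 overlapped a peak in place and 38 to 60 when moved along the chromosome.

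Libraries were scaled with TMM factors. limma 3.58.1 (R 4.3.3) with an intensity trend was fitted to log2(signal + 1) over all peaks after the lowest 25% were dropped, with Benjamini-Hochberg adjustment over 8274 peaks. Each peak had 2 residual degrees of freedom for the library labelled dcr delta and 1 for each heat comparison. The prior fitted over all peaks added 6.83 for the library labelled dcr delta, 13.8 at 8 hours and 15.5 at 7 days. It thus outweighed the spread of a peak's own libraries. Fold changes on this scale understate low peaks. The mean behind the filter covered the control and treated libraries of a comparison, so a peak low in the controls could pass through the treated library. "Like level" weights comparison peaks to the members' 10 bins of mean level. Named members were those past the threshold, the 8 largest rises and falls, the 10 highest, and the 5 genes with most members; of these, the ones that the results turn on are printed. Intervals (95%, Wilson or exact) and the bound of 3 reads for a 0 cover counting error only, since PCR reads without molecular identifiers are not independent molecules. Of the members, 1483 (43.8%) share reads between copies. The members and lists were chosen with earlier results of these data known. Of the members that rose at 8 hours, 1 is counted but not reported here.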

Additional observations from a re-analysis of the deposited data

How the results depend on the processing

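No called member changed the sign of its ratio under the alternatives run, but the balance of rises and falls turned in some, as the counts below show. The 8-hour median (-0.08) was 0.05 without peaks whose reads are shared between copies. For the library labelled dcr delta, the count of members that rose (1) became 2 with total reads, a pseudocount of 10 or voom weights, 3 with reads summed per coding gene, and 1 to 5 when a control was left out. The count that fell (4) became 2 with voom weights, summed reads or at least 50% of the peak covered, 1 without pericentromeric and subtelomeric peaks or without shared-copy peaks, and 3 to 11 when a control was left out. Its median became -0.0053 with the constant of 8 kept, and the difference from like-level peaks -0.10 with spb80 as the only control. At 8 hours the counts that rose and fell (12 and 5) became 0 and 1 with total reads, 5 and 2 with median-of-ratios factors, 1 and 1 without the filter, 0 and 0 with summed reads, 1 and 1 in a fit of all 6 libraries, and 24 and 10 in a fit of 4 spb75 libraries. With a pseudocount of 10, 36 rose; with voom weights 1 fell; and without shared-copy peaks 6 rose. With total reads the median became -1.18 at 8 hours and -0.56 at 7 days, where the median of all peaks moved to -1.11 and -0.50. Leaving out 1 spb75 control left no test for heat; the 8-hour difference from like-level peaks was then -0.058 or -0.017 (without replicate 1 or 2). At 7 days the fit of 4 spb75 libraries called 1 rise. That fit and the removal of shared-copy peaks were chosen after seeing the data. The cause of these changes was not tested.

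The members' share of reads over protein-coding peaks was 34.4, 35.0 and 34.6% in wild type (spb80, then spb75). It was 33.6% in the library labelled dcr delta, 34.5% at 8 hours and 34.3% at 7 days. Of reads over all peaks without rRNA and tRNA, the members held 13.7, 11.8, 18.4, 27.0, 14.8 and 20.4% in the same order. Among single members, 65 values lost the threshold, 22 gained it, 28 moved and 488 did not change side. No paired analysis was possible because only the spb75 libraries at 30 °C carry replicate numbers.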
